A study of Mus musculus with 56 samples.

Results

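The 8 genes described here encode the enzymes that carry long-chain fatty acids into the mitochondrion and break them down by beta-oxidation. They were chosen by symbol from the 25939 genes of the deposited table for visceral adipose tissue (VAT), and all 8 were found in it. Cpt1a, Cpt1b and Cpt2 are carnitine palmitoyltransferases, Acadvl, Acadl and Acadm are acyl-CoA dehydrogenases for very long, long and medium chains, and Hadha and Hadhb are the subunits of the mitochondrial trifunctional protein. None of the 8 is an enzyme of ketone body synthesis or use. On genome build mm10 (GRCm38) Cpt1a lies at chr19:3322334-3385733 on the plus strand, Cpt1b at chr15:89416405-89425863 on the minus strand and Cpt2 at chr4:107903981-107923610 on the minus strand. Acadvl lies at chr11:70010183-70015411, Acadl at chr1:66830839-66863277 and Acadm at chr3:153922357-153944632, all on the minus strand. Hadha (chr5:30118304-30155162, minus strand) and Hadhb (chr5:30155248-30184593, plus strand) lie head to head.

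Long-chain acyl-CoA cannot cross the inner mitochondrial membrane. A carnitine palmitoyltransferase 1 of the outer membrane makes acylcarnitine, a translocase carries it inwards, and Cpt2 makes acyl-CoA again in the matrix. The first step is blocked by malonyl-CoA, the product of acetyl-CoA carboxylase, so that a cell making fat does not burn it at the same time. Cpt1a is the form typical of liver and Cpt1b that of muscle and brown fat. Each later round of beta-oxidation starts with an acyl-CoA dehydrogenase and ends with a thiolase, and for long chains the last steps are made by the trifunctional protein. White adipose tissue stores and releases fatty acids, and fasting is known to raise PPAR-alpha target genes, Cpt1a among them, in several tissues.

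VAT was taken from 56 female C57BL/6J mice aged 9 weeks that were kept specific pathogen-free under a 12 h light and 12 h dark cycle. All mice ate normal chow ad libitum during entrainment and were then given food only by day (daytime-restricted feeding, DRF) or only by night (nighttime-restricted feeding, NRF) for 7 days. NRF, which keeps meals in the active phase of the mouse, served as the reference. Each of the 14 groups held 4 mice at 1 of 7 times, ZT0 to ZT24 every 4 h, where ZT0 is lights on, so that DRF mice were fed from ZT0 to ZT12 and NRF mice from ZT12 to ZT24. Values below are CPM (read counts scaled to a common library size) recovered from the deposited table, and differences are on the log2(CPM + 1) scale. A whole piece of tissue was sequenced, so fewer cells of a type and less RNA per cell cannot be told apart.

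The recovered reads per library ranged from 26510143 to 35907281. Apart from Cpt1b, every member had at least 1334 reads in each library. Adipocyte markers were high in all libraries, with Adipoq at 1030 to 3770 CPM. In the DRF libraries ZT8 replicate 1 and ZT0 replicate 4 the epithelial marker Epcam reached 89 and 245 CPM, against a median of 0.698 and a maximum of 8.52 CPM in the others. The sum over 6 markers of uterine or oviduct epithelium was 440 and 702 CPM in them and 15.3 to 58.6 CPM elsewhere, and their sums over 5 adipocyte markers, 4110 and 7030 CPM, were below the other 54 libraries (7280 to 14800 CPM). Cpt2, Acadvl, Acadl, Acadm, Hadha and Hadhb had their lowest DRF value in ZT8 replicate 1, and Cpt1a its highest, 101 CPM, in ZT0 replicate 4. Where leaving out these 2 libraries changes a call of a member, both values are given, and the part of the epithelial tissue in them was not tested.

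Stretches before the start sites are shown because the results turn on these genes. RefSeq promoter windows (GRCm38.p6, 250 bases before to 50 after a start) were found for 7 members, all but Cpt1b. The first is chr19:3323051-3323250 on the plus strand, inside the gene span of Cpt1a but in no exon, the second is chr3:153944694-153944893 on the minus strand before Acadm, and the third is the whole gap of 85 bases, chr5:30155163-30155247 read on the plus strand, between the 5′ ends of Hadha and Hadhb. The first and second run from 250 to 51 bases before the RefSeq start.
Cpt1a: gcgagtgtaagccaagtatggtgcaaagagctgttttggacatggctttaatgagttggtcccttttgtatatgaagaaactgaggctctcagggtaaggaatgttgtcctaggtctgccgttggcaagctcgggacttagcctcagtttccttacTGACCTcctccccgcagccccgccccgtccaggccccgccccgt
Acadm: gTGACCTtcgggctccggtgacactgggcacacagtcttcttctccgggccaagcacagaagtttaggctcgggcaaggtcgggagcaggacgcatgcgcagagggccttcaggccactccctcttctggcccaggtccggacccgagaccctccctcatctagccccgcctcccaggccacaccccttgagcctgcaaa
Hadha-Hadhb gap: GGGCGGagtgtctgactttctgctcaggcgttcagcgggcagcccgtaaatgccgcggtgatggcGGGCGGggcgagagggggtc
Capitals mark TGACCT, the other strand of AGGTCA, in Cpt1a and Acadm, and GGGCGG, the core of a GC box, in the gap. AGGTCA is the core that nuclear receptors such as PPAR bind as a spaced pair. It was found on either strand in the windows of Cpt1a, Acadvl and Acadm, 3 of 7, and in 16.3% of all 32851 windows. GGGCGG was found in 5 of 7 windows (Cpt1a, Cpt2, Acadl, Hadha and Hadhb) and in 35.7% of all. The windows of Hadha and Hadhb share 228 bases, and the 1 match in that of Hadha is also 1 of the 4 in that of Hadhb. The spaced pair DR1 (AGGTCA, any 1 base, AGGTCA) was in none of the 7 and in 0.0396% of all, the E-box CACGTG in none and in 7.15% of all, and CCAAT in that of Cpt1a and in 37.4% of all, each searched on both strands.

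Per kilobase of exon, Acadl stood highest, with a median of 197 CPM per kb over the 56 libraries. Acadm followed at 108, Cpt2 at 72.8, Acadvl at 59.3, Hadhb at 46.9 and Hadha at 44.8 CPM per kb. Except for Cpt1a, the length is that of all annotated exons joined, not of a single transcript. It is 8730 bases for Hadha, 6595 for Hadhb, 3913 for Acadm and 2005 for Acadl, so this order depends on the annotation. Before division by length the median of Acadm was 424 CPM, that of Acadl 394 and that of Hadha 391. The ranges of neighbours in this order overlapped, and those of Hadhb (24.9 to 74.3) and Hadha (26.8 to 69.3) nearly coincided. The place of Hadhb is uncertain, since with the reads listed under its near-identical pseudogene Gm13910 its median would be 62.2 CPM per kb, above that of Acadvl. Cpt1a lay below them at 13.4 CPM per kb (8.36 to 23.5), and Cpt1b far below at 0.0468 (0.00773 to 0.136). For Cpt1a the exon length used, 4300 bases, is the one the deposited values imply, while the reference annotation gives 7642.

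The question of the design is whether a gene follows the meals or the light cycle. Cpt1a, the gate of the pathway, followed the meals. Under NRF its 8 fasting libraries (ZT4 and ZT8) held 58.7 to 88.7 CPM with a median of 78.2, and its 8 fed libraries (ZT16 and ZT20) held 36 to 49.2 CPM with a median of 45.2. Under DRF the clock times swapped. The 8 fasting libraries (now ZT16 and ZT20) held 58.7 to 74.7 CPM with a median of 65.6, and the 8 fed libraries (now ZT4 and ZT8) held 45.8 to 55.3 CPM with a median of 48.4. Fed and fasting libraries did not overlap within either regimen.

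Over the 4 time points and both regimens, Cpt1a was lower in fed than in fasting VAT by a log2 difference of -0.57 (SE 0.069, 95% interval -0.71 to -0.44, adjusted p = 3.24e-09 in limma), a ratio of 0.672. It was 1 of the 7 members that passed the filter on low values and the only one past the threshold, where 17.4% of the 17236 genes tested were called lower and 19.0% higher when fed. Within NRF the difference was -0.74 (SE 0.10, adjusted p = 5.28e-08) and within DRF it was -0.41 (SE 0.10, adjusted p = 0.00115). The difference of dark minus light over the same 32 libraries was -0.17 (SE 0.069, adjusted p = 0.0789), and -0.17 (SE 0.062, adjusted p = 0.0358) without the 2 DRF libraries that stood apart. Of the 7 members 0 passed for dark minus light in limma, by voom as well, and 2 (Cpt1a and Hadhb) had an unadjusted p under 0.05, while 19.9% of all genes were called. Some markers of cell types moved with feeding too. Lep, of 5 adipocyte markers, was higher when fed (1.70), as were Dio2 (1.35), of 6 brown or beige adipocyte markers, of which Ucp1 was lower (-1.12, adjusted p = 0.0317), and Serpina1a (0.63, adjusted p = 0.0189), of 3 liver markers tested. Of 3 ovary markers tested Star was higher (0.33) and Cyp11a1 lower (-0.14), of 6 uterine or oviduct markers Ovgp1 was lower (-0.18), and 0 markers of skeletal muscle, mesothelium, macrophages, lymph node or blood passed. The summed liver markers held 657 to 6060 CPM (median 2140) in fed and 1160 to 6920 CPM (median 3170) in fasting libraries. Outside the 2 libraries apart this sum had a median of 2690 CPM, and Cyp2e1 alone had 2660, against 30.2 for Alb and 0 for Ttr. The sum thus mainly follows Cyp2e1, whose feeding difference was -0.47 (adjusted p = 0.0658 in limma), and is no measure of liver RNA. The summed brown or beige markers held 43.3 to 120 CPM (median 73.3) in fed and 33.2 to 142 CPM (median 77.6) in fasting libraries. The part of all these markers in the difference of Cpt1a was not tested.

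**Figure D1:**
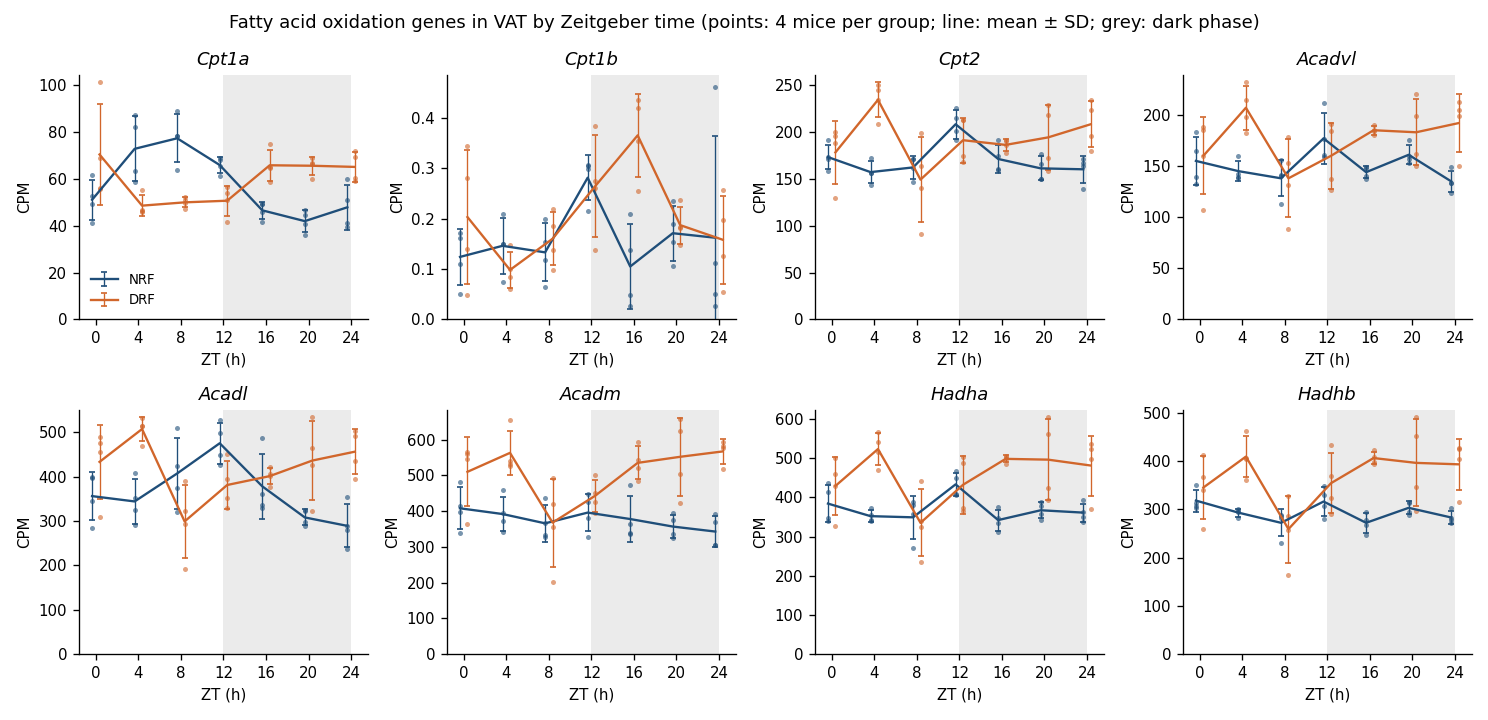
CPM of the 8 genes against Zeitgeber time (h) under NRF (blue) and DRF (orange), with 1 point per mouse, the line and bars giving the mean ± SD of 4 mice and grey the dark phase. Cpt1a is high in the light under NRF (77.2 CPM at ZT8) and in the dark under DRF (65.7 CPM at ZT16), and most other members run higher under DRF.

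Cpt1a oscillated under both regimens. The combined JTK_CYCLE and Lomb-Scargle test gave an adjusted p of 7.11e-06 under NRF and 0.00178 under DRF, where 24.5% and 12.9% of the 25939 genes were called. The mean was highest at ZT8 under NRF, 77.2 ± 10.2 CPM, and lowest at ZT20, 41.9 ± 4.65 CPM (SD, n = 4). Under DRF it was lowest at ZT4, 48.5 ± 4.55 CPM, and stood at 65.7 ± 6.64 CPM at ZT16, and at 70.3 ± 21.4 CPM at ZT0 with the library apart. The cosine fit placed the peak at 7.6 ± 0.412 h under NRF and 20.1 ± 0.709 h under DRF (SE), a shift of 11.5 ± 0.821 h, so its phase was inverted. On the log2 scale NRF gave an amplitude of 0.467 ± 0.0549 and DRF one of 0.276 ± 0.0542, 59% as large. The mesor, the mean level of the fitted wave, was 5.85 and 5.87, and the mean level did not pass the test between regimens (DRF minus NRF 0.064, 95% interval -0.040 to 0.17, adjusted p = 0.354). Under DRF the rhythm lost its call without replicate 2 (adjusted p = 0.0689) or replicate 3 (0.0924), where the share of all genes called went from 12.9% to 5.15% and 5.25%.

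Cpt1b, the muscle form, was close to absent. It had 1 to 20 reads per library, or 0.0261 to 0.46 CPM, and did not pass the filter on low values. Of the words of 31 bases looked up in Gm44502, whose level was not analysed here, 62.8% occur in Cpt1b transcripts, so the assignment of these few reads is uncertain as well. The same rhythm test gave an adjusted p of 1 under NRF and 0.0201 under DRF, with the highest DRF mean at ZT16, 0.365 ± 0.0821 CPM against 0.105 ± 0.0838 CPM under NRF. These means rest on 11 to 15 reads per DRF library and 1 to 8 reads per NRF library. Without replicate 1, 3 or 4 the DRF rhythm was not called (adjusted p = 0.299, 0.706 and 0.0808). With no filter, limma called Cpt1b lower when fed within DRF (-0.17, adjusted p = 0.0139), where 18.2% of 25928 genes were called. It was higher under DRF at ZT16 (0.31, adjusted p = 0.00424) and after 4 h of fasting (0.25, adjusted p = 0.0206), where 9.97% and 10.4% were called. Its DRF cosine passed (adjusted p = 0.00542, 26.7% of genes), while fed minus fasting over both regimens did not (0.0761). The summed level of 8 skeletal muscle markers ranged from 6.34 to 633 CPM over the libraries, and the NRF ZT24 library with the highest Cpt1b value held 432 CPM of them, whereas the next highest, DRF ZT16 replicate 1, held 67.8 CPM. The part of muscle RNA in the Cpt1b values was not tested.

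The matrix enzymes did not pass the test of fed against fasting over both regimens, although the fitted peak of Acadl moved with the meals too. Cpt2, which completes the carnitine shuttle, held 143 to 172 CPM (median 158) in fasting and 150 to 191 CPM (median 163) in fed NRF libraries. Under DRF it held 158 to 229 CPM (median 188) in fasting and 91 to 250 CPM (median 204) in fed libraries. Fed and fasting libraries overlapped in both regimens, and the fed minus fasting difference was 0.004 (95% interval -0.13 to 0.14, adjusted p = 0.974).

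Among the acyl-CoA dehydrogenases, which catalyse the first oxidation step for chains of different length, Acadm held 327 to 458 CPM in fasting and 325 to 473 CPM in fed NRF libraries. Under DRF the ranges were 423 to 659 CPM in fasting and 203 to 655 CPM in fed libraries, so that fed and fasting again overlapped while the DRF values lay higher. The fed minus fasting differences were -0.16 for Acadm (95% interval -0.33 to 0.006, adjusted p = 0.129), -0.12 for Acadl (-0.28 to 0.046, adjusted p = 0.274) and -0.014 for Acadvl (-0.17 to 0.14, adjusted p = 0.917). The intervals for Acadm and Acadl reach further below 0 than above it, and none reaches the interval of Cpt1a.

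For the trifunctional protein, whose alpha subunit (Hadha) holds the hydratase and dehydrogenase and whose beta subunit (Hadhb) the thiolase, the differences were -0.12 (95% interval -0.26 to 0.026, adjusted p = 0.205) and -0.14 (-0.29 to 0.002, adjusted p = 0.119). Within DRF Hadhb passed as lower when fed (-0.31, SE 0.10, adjusted p = 0.0172), but not without the 2 libraries apart (-0.21, adjusted p = 0.0526). Within DRF 2 of 7 members (Cpt1a and Hadhb) were called lower, where 13.5% of all genes were, and within NRF 1 of 7 (Cpt1a), where 16.7% were. Hadha and Hadhb kept a nearly constant ratio, 1.08 to 1.46 over the 56 libraries with a coefficient of variation of 5.92%. The ratio of Hadha to Cpt1a ranged from 3.05 to 12.4 with a coefficient of variation of 27.2%, and its median was 4.78 in fasting and 8.05 in fed NRF libraries and 7.66 and 8.47 in DRF libraries.

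**Figure D2:**
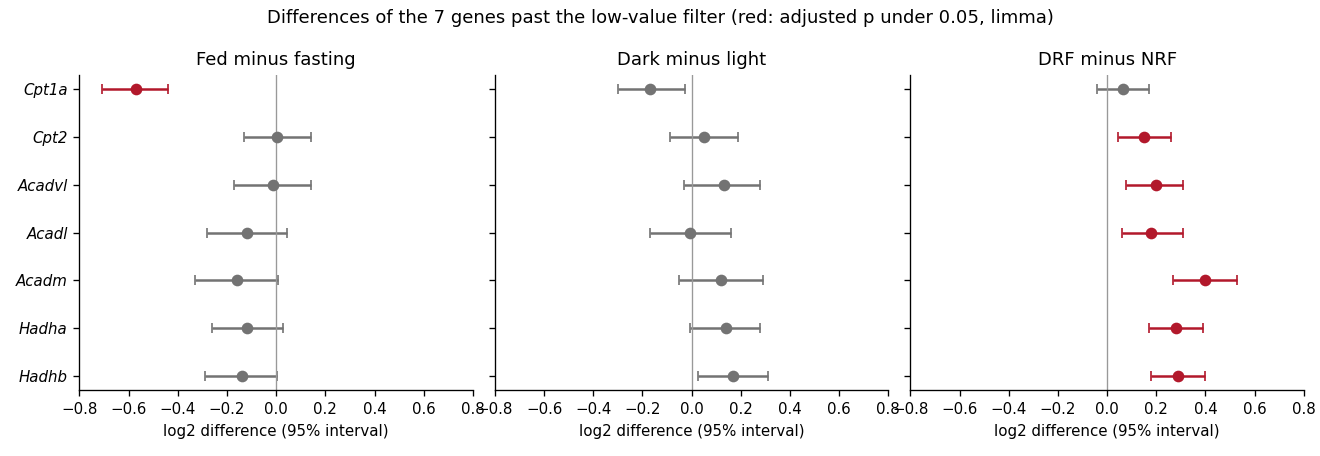
Log2 differences with 95% intervals for the 7 members past the filter in 3 contrasts (fed minus fasting, dark minus light, DRF minus NRF), in red where the adjusted p from limma is under 0.05. Cpt1a stands at -0.57 for feeding, and the other 6 members are above 0 for DRF minus NRF.

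The values of Hadhb carry a limit of the counting. The processed pseudogene Gm13910 (chr2:108948806-108950233) is 1428 bases long and matches a Hadhb transcript at 1425 of them (99.8%) without a gap, and 93.3% of its words of 31 bases occur in Hadhb transcripts. It was listed at 54.5 to 165 CPM, 29.8% to 35.5% of Hadhb in every library. Its DRF minus NRF difference of 0.30 (SE 0.053, adjusted p = 1.91e-05) was close to that of Hadhb, 0.29 (SE 0.054), so reads of the coding part may be divided between them and the level of Hadhb is uncertain. The pseudogene Gm9108 shared 47.1% of the words looked up with Hadhb but stood at a median of 0.935% of its CPM. Dvl2 overlaps Acadvl by 2119 bases on the other strand at a median of 14 CPM against 159, and the library kit does not keep the strand.

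The regimen moved the mean level of the matrix enzymes. Over 7 time points, 6 of the 7 members tested were higher under DRF and 0 lower, where 18.0% of all genes tested were called higher and 16.7% lower, and the median difference of the 7 was 0.195 against -0.00379 over all genes. Acadm, the medium-chain dehydrogenase, differed most. Its 28 NRF libraries held 306 to 482 CPM with a median of 371, and its 28 DRF libraries 203 to 659 CPM with a median of 523, so the ranges overlapped while the DRF median lay above the highest NRF library. Its log2 difference was 0.40 (SE 0.063, adjusted p = 3.89e-06), a ratio of 1.32.

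Hadhb held 230 to 351 CPM (median 295) under NRF and 165 to 490 CPM (median 381) under DRF, a difference of 0.29 (adjusted p = 5.49e-05). Hadha held 270 to 466 CPM (median 360) and 234 to 605 CPM (median 486), a difference of 0.28 (SE 0.054, adjusted p = 7.06e-05). In both genes the DRF median exceeded the highest NRF value, although the ranges overlapped. The differences were smaller for Acadvl (0.20, SE 0.059, adjusted p = 0.00829), Acadl (0.18, SE 0.062, adjusted p = 0.018) and Cpt2 (0.15, SE 0.052, adjusted p = 0.0224).

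Without the 2 DRF libraries apart the 6 differences were larger, 0.46 for Acadm, 0.33 for Hadhb, 0.32 for Hadha, 0.25 for Acadvl, 0.23 for Acadl and 0.20 for Cpt2. Leaving out replicate 2 of every group left 3 of the 6 past the threshold (Acadm, Hadha and Hadhb), with the share called over all genes at 22.8% in place of 34.7%, and Acadvl, Acadl and Cpt2 then had adjusted p = 0.085, 0.211 and 0.123. Markers of other cells moved with the regimen too. Of 6 macrophage markers 4 were lower under DRF and 0 higher (summed level 588 to 1110 CPM, median 774, under DRF and 672 to 1760, median 885, under NRF), and of 5 mesothelial markers 3 were lower and 0 higher (191 to 565, median 340, and 229 to 617, median 444). Of 6 blood markers 5 were higher (201 to 818, median 455, and 168 to 708, median 261), and of 6 brown or beige adipocyte markers 2, Cox7a1 and Elovl3, were higher (36.4 to 157, median 91.3, and 33.2 to 156, median 69.9). Of 5 adipocyte markers Lep and Pnpla2 were higher and Adipoq lower (4110 to 14800, median 11100, and 7280 to 13800, median 10300). Star, of 3 ovary markers tested, was lower (-0.31, adjusted p = 4.38e-05 in limma). The summed ovary markers held 4.73 to 44.1 CPM (median 9.1) under DRF and 7.68 to 23.1 CPM (median 11) under NRF. Of the skeletal muscle, liver, uterine or oviduct and lymph node markers 0 passed. No marker of these lists was at 0 in all libraries, and their part in the differences of the members was not tested.

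Taken time by time, the DRF minus NRF difference of Cpt1a changed sign with the clock, and it did not pass the test when the regimens were aligned by their meals. At the same clock time it was -0.56 at ZT4 (adjusted p = 0.00169), -0.61 at ZT8 (0.000809) and -0.38 at ZT12 (0.0357), and 0.43 at ZT0 (0.0257), 0.49 at ZT16 (0.0104), 0.63 at ZT20 (0.000558) and 0.45 at ZT24 (0.0172). At ZT0 it was 0.24 without the libraries apart (adjusted p = 0.205), and at ZT12 it did not pass with any 1 replicate number left out (-0.33 to -0.42, adjusted p = 0.0793 to 0.105) or with no filter (0.0508). At the same time after food was given or taken away, 12 h apart on the clock, the 6 differences of Cpt1a ran from -0.23 to 0.25 and none passed the test. These comparisons share their libraries.

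The matrix enzymes behaved differently. After 4 h of feeding (DRF ZT4 against NRF ZT16) all 6 were higher under DRF, by 0.61 for Hadha, 0.58 for Hadhb, 0.58 for Acadm, 0.52 for Acadvl, 0.45 for Cpt2 and 0.44 for Acadl, with adjusted p from 0.00215 to 0.0486, where 12.3% of all genes were called higher. Without replicate 2, 3 of the 6 passed, and without replicate 4, 2, while the share of all genes called in either direction went from 21.7% to 12.3% and 8.88%. Cpt2 shows this plainly, with 234, 208, 250 and 244 CPM in the DRF ZT4 mice and 160, 174, 191 and 159 CPM in the NRF ZT16 mice, which did not overlap. At the same ZT4 the 6 were also higher under DRF, by 0.47 to 0.58, and Cpt1a lower, 7 of 7 past the threshold where 31.5% of all genes passed (4 of 7 without replicate 4, where 17.9% did). After 8 h of feeding 0 of 7 passed in limma, by voom as well, and 0 had an unadjusted p under 0.05 (2.23% of all genes called), and the DRF ZT8 group holds 1 of the libraries apart. Without the 2 libraries apart the 7 differences ran from -0.074 (Acadvl) to 0.28 (Cpt1a), and none passed.

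After 4 h of fasting (DRF ZT16 against NRF ZT4) Hadha (0.50, adjusted p = 0.0125) and Hadhb (0.47, adjusted p = 0.0188) were higher under DRF, 2 of 7 where 7.85% of all genes were. Without the libraries apart Acadm (0.45, adjusted p = 0.00932 in place of 0.054) and Acadvl (0.35, 0.0315 in place of 0.105) passed as well, with the share of all genes called in either direction at 23.4% in place of 17.7%. After 8 h of fasting (DRF ZT20 against NRF ZT8) Acadm (0.58), Hadhb (0.52) and Hadha (0.49) were higher, 3 of 7 where 9.59% were, and Acadvl (0.40) went from an adjusted p of 0.0685 to 0.016 without the libraries apart, where 22.3% were called in either direction in place of 16.5%. At the end of the fast (DRF ZT0 and ZT24 against NRF ZT12) 1 of 7, Acadm, was higher (0.44, adjusted p = 0.0473, and 0.51, adjusted p = 0.0015, without the libraries apart), where 4.35% were. At the end of feeding (DRF ZT12 against NRF ZT0 and ZT24) 0 passed in limma or by voom, 0 had an unadjusted p under 0.05, and 5.33% of all genes were called. Without replicate 2, and likewise without replicate 3, 0 members passed after 4 h or 8 h of fasting or at the end of the fast, and without replicate 4, 0 passed after 4 h of fasting and at the end of the fast. The calls over all genes fell too, without replicate 2 from 16.5% to 1.47% after 8 h of fasting, from 17.7% to 10% after 4 h and from 9.06% to 3.46% at the end of the fast. Without replicate 3 these shares were 11.9%, 6.58% and 5.77%, and without replicate 4 they were 10% after 4 h and 5.73% at the end of the fast.

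At the other clock times 1 member passed at ZT0 (16.9% of all genes), 2 at ZT8 (26.1%), 1 at ZT12 (25.5%), 4 at ZT16 (16.6%), 4 at ZT20 (21.3%) and 6 at ZT24 (18.8%). Without replicate 2 these were 0, 1, 0, 2, 1 and 2 members in the same order, and the shares of all genes called were 6.75%, 17.6%, 13.9%, 9.42%, 10.4% and 7.53%. Acadl was lower under DRF at ZT8 (-0.47, adjusted p = 0.0301), but not past the threshold without the libraries apart (-0.27, adjusted p = 0.177). Leaving out the libraries apart also gave calls at ZT0 for Acadm (0.31, adjusted p = 0.205, to 0.46, adjusted p = 0.0169) and Acadl (0.27, adjusted p = 0.263, to 0.42, adjusted p = 0.0424). At times that hold neither library the differences stayed as they were and the adjusted p passed for Acadvl at ZT16 (0.36, from 0.101 to 0.0279), Hadhb at ZT20 (0.35, from 0.07 to 0.018) and Cpt2 at ZT24 (0.37, from 0.0514 to 0.00624), while the shares of all genes called went up to 22.5%, 25.7% and 24.3%. At ZT24 the largest difference was that of Acadm, 576, 517, 582 and 593 CPM under DRF against 370, 391, 306 and 306 CPM under NRF, a log2 difference of 0.73 (SE 0.17, adjusted p = 0.0017). The 4 DRF mice all lay above the 4 NRF mice.

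**Figure D3:**
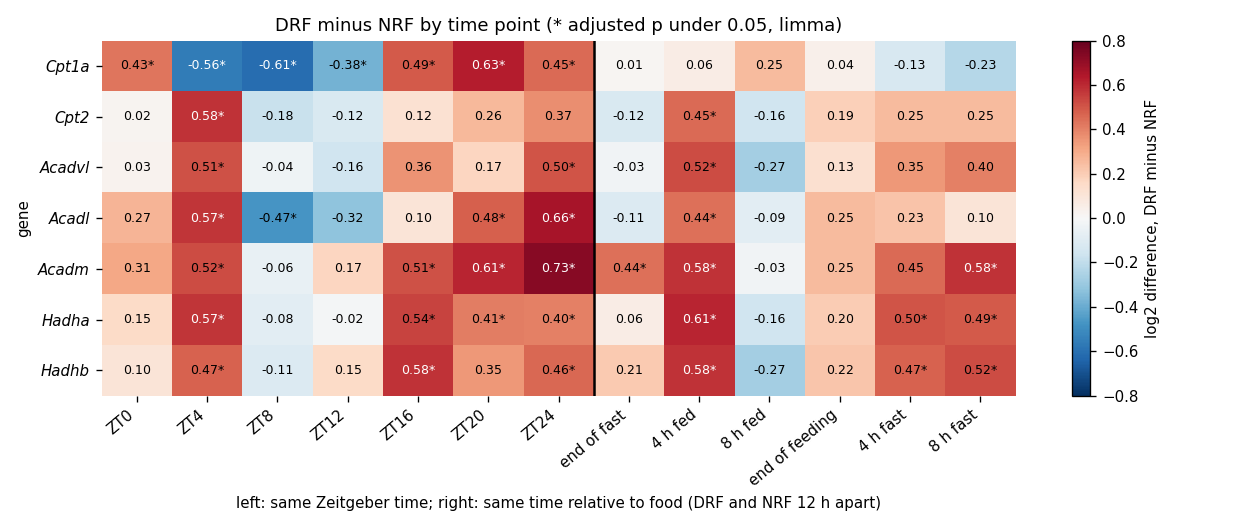
Log2 differences of DRF minus NRF for 7 members (rows) at the 7 Zeitgeber times (left of the line) and at 6 matched times relative to food (right), red above 0 and blue below, with a star where the adjusted p from limma is under 0.05. Cpt1a changes sign across the clock times and stays between -0.23 and 0.25 on the right, while the other 6 rows are starred at 4 h of feeding.

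The rhythm itself differed between the regimens for 3 of 7 members in the limma interaction of a 24-h cosine with regimen, where 51.6% of all genes passed. These were Cpt1a (adjusted p = 3.14e-11), Acadl (0.000108) and Acadm (0.0343), and without the libraries apart Cpt2 passed too (0.00949 in place of 0.093), where 57.8% of all genes did. Acadl, whose enzyme starts the oxidation of long chains, had means of 475 ± 45.9 CPM at ZT12 and 289 ± 48.3 CPM at ZT24 under NRF, whereas under DRF it stood at 381 ± 53.2 CPM at ZT12 and 456 ± 50.8 CPM at ZT24 (SD, n = 4). Its fitted peak moved from 10.9 ± 1.07 h to 22.8 ± 1.36 h (SE), by 11.9 ± 1.73 h. Within the DRF feeding window, however, its 4 mice held 513, 469, 514 and 532 CPM at ZT4 and 191, 323, 294 and 389 CPM at ZT8, without overlap, a step that a 24-h cosine does not describe. In the same window Cpt2 had means of 234 ± 18.6 and 149 ± 45.3 CPM and Acadm of 563 ± 61.5 and 368 ± 123 CPM, the lowest ZT8 mouse being the library apart in each case, and ZT4 and ZT8 were not tested against each other. The combined rhythm test called Acadl under NRF (adjusted p = 0.0294) but not under DRF (adjusted p = 1), and the NRF call was lost without any 1 replicate number (adjusted p = 0.0768 to 0.511) or without ZT24 (0.178).

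Acadm had a fitted amplitude of 0.0323 ± 0.07 under NRF and 0.251 ± 0.0683 under DRF with a peak at 21.3 ± 1.06 h (SE). The cosine F test in limma called it under DRF (adjusted p = 0.00775), together with Cpt1a, Acadl and Hadhb, 4 of 7 where 40.4% of all genes passed (Hadhb had 0.0296, and 0.0658 without the libraries apart), while the combined test did not (adjusted p = 1). Under NRF the F test called Cpt1a and Acadl, 2 of 7 where 49.8% passed. The other amplitudes, of Cpt2, Acadvl, Hadha and Hadhb, were 0.03 to 0.112 under NRF and 0.107 to 0.207 under DRF, and the combined test gave each an adjusted p of 0.986 or 1.

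Over the 14 group means the profiles of Hadha and Hadhb had a Pearson r of 0.974, Acadm and Hadhb one of 0.939, and Acadvl and Hadha one of 0.938, while Cpt1a had 0.112 with Cpt2 and at most 0.466 (with Acadl) with any member. The groups share the regimens and the libraries apart, so these are descriptions. Among the other genes, Etfdh, which passes electrons from the dehydrogenases to ubiquinone, was most like the mean profile of the 8 (r = 0.955), followed by Supt3 (0.951), Iars2 (0.935), D2hgdh (0.933) and Vwa8 (0.932). Closest to Cpt1a were Btc (0.975) and Tbc1d15 (0.967), to Cpt1b Katnal1 and Ap4m1 (0.923 each), and to Cpt2 Coq9 (0.953) and Tmem143 (0.946). Closest to Acadvl were Sdha (0.966) and Hadh (0.955), to Acadl Grsf1 (0.948) and Tmem143 (0.947), to Acadm Ap3s1 and Hsdl2 (0.966 each), to Hadha Gm13910 (0.977) and Sdha (0.959), and to Hadhb its pseudogene Gm13910 (0.992) and Afg1l (0.969).

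Among the genes of ketone body metabolism described here, Acat1, Oxct1 and Bdh1, which act in the last step of synthesis and in use, had fed minus fasting differences of -0.071 (SE 0.063, adjusted p = 0.414), -0.011 (SE 0.066, adjusted p = 0.918) and 0.082 (SE 0.12, adjusted p = 0.651) that did not pass the test. For dark minus light Bdh1 was lower in the dark (-0.34, SE 0.12, adjusted p = 0.0414), and without the libraries apart, of which DRF ZT8 replicate 1 had its highest value at 2.81 CPM, the difference was -0.28 (adjusted p = 0.0456). The call was lost without replicate 1 (adjusted p = 0.148) or 2 (0.24) and with no filter (0.0593), and its size depended on the pseudocount (-0.59 with 0.25 in place of 1, and -0.82 by voom). For DRF minus NRF the differences were 0.065, 0.004 and -0.055, which did not pass.

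**Figure D4:**
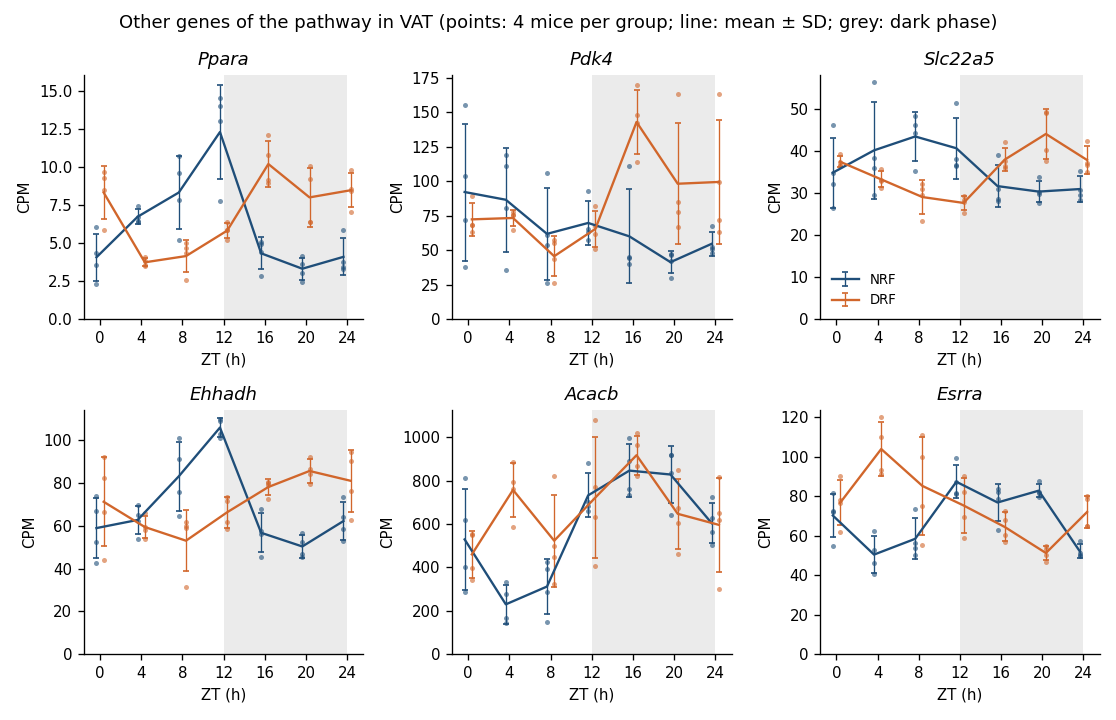
CPM against Zeitgeber time (h) of 6 other pathway genes under NRF (blue) and DRF (orange), with 1 point per mouse, lines and bars for the mean ± SD of 4 mice and grey for the dark phase. Ppara, Slc22a5 and Ehhadh are higher in the fasting light phase under NRF and in the fasting dark phase under DRF, and Esrra is lower in both. Pdk4 has its highest mean under DRF at ZT16 (143 CPM), and Acacb is lower in the fasting light phase of NRF but not in the fasting dark phase of DRF.

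The lists below are to be read against all genes tested, of which 19.0% were higher and 17.4% lower when fed and 18.0% higher and 16.7% lower under DRF. The dark minus light contrast is also the test of whether the feeding difference differed between the regimens, since light and dark are fed and fasting in opposite order. Without the 2 DRF libraries apart, all 22 of the 56 list genes called for feeding and 20 of the 21 called for the regimen were still called, all but Prkag2, and 4 and 15 more passed. The shares of all genes called rose too, from 36.4% to 41.4% for feeding and from 34.7% to 43.4% for the regimen. DRF ZT8 replicate 1 held the lowest DRF fed value of all 12 list genes called lower when fed. Without it and ZT0 replicate 4 their differences were nearer 0 and still passed, at -0.15 for Etfdh, -0.24 for Acad12, -0.22 for Acaa2, -0.43 for Ehhadh, -0.19 for Acox3 and Amacr, -0.16 for Decr2, -0.15 for Crot, -0.37 for Slc22a5, -0.26 for Prkaa1, -0.88 for Ppara and -0.68 for Pdk4. Of 4 genes of carnitine uptake and translocation, Slc22a5, the carnitine transporter of the plasma membrane, and Crot, the peroxisomal carnitine octanoyltransferase, were lower when fed, by -0.39 (SE 0.068, adjusted p = 6.16e-06) and -0.17 (adjusted p = 0.00695), and 0 were higher. Slc25a20, the translocase between Cpt1 and Cpt2, had -0.020 (adjusted p = 0.872) and Crat -0.14 (adjusted p = 0.183). Slc22a5 held 29.7 to 56.5 CPM in fasting and 27.7 to 39.1 CPM in fed NRF libraries, and 36.1 to 49.3 CPM and 23.3 to 35.8 CPM in DRF libraries, so that only the DRF groups did not overlap. Crot and Slc25a20 were higher under DRF, by 0.16 (adjusted p = 0.00115) and 0.14 (adjusted p = 0.0469).

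Of 14 genes for other steps of mitochondrial beta-oxidation, 3 were lower and 1 higher when fed, and 5 were higher and 0 lower under DRF. The thiolase Acaa2 (-0.27, adjusted p = 0.00169), Etfdh (-0.19, adjusted p = 0.00708) and Acad12 (-0.30, adjusted p = 0.0186) were lower when fed and Acad11 higher (0.31, adjusted p = 0.0128), so that the counts for feeding were close to those shares or below them. Within NRF 2 of the 14 were lower and 0 higher, and within DRF 1 was lower and 0 higher. Of all genes 16.7% and 13.5% were lower in these tests, and Acad11 was called higher in neither regimen. Decr1 (0.32), Acaa2 (0.29), Acads (0.28), Etfdh (0.26) and Acad9 (0.19) were higher under DRF, differences of the size seen in the matrix members. Of 14 peroxisomal genes, 4 were lower when fed and 0 higher, among them Ehhadh (-0.49, SE 0.086, adjusted p = 8.59e-06), the bifunctional enzyme of peroxisomes, and Acox3 (-0.22), Decr2 (-0.19) and Amacr (-0.23, with -0.059 within NRF and -0.39 within DRF), and 8 were higher under DRF and 0 lower.

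Of 6 genes around malonyl-CoA, which inhibits Cpt1, 3 were higher and 1 lower when fed. Acacb, the mitochondrial acetyl-CoA carboxylase, had a pooled fed minus fasting difference of 0.70 (SE 0.15, adjusted p = 0.000231) that came from NRF alone. It was higher when fed within NRF (1.73, SE 0.22, adjusted p = 2.04e-08), while within DRF the difference turned to -0.32 (SE 0.22, adjusted p = 0.286), and the regimens differed in it (dark minus light 1.02, adjusted p = 3.9e-06). Its NRF libraries held 143 to 424 CPM in fasting and 640 to 997 CPM when fed without overlap, while its DRF libraries held 462 to 1020 CPM (median 833) in fasting and 323 to 887 CPM (median 674) when fed. The AMPK subunits Prkag2 (0.47) and Prkaa2 (0.75) were higher when fed, and both passed within each regimen. The difference of Prkag2 was smaller within NRF (0.22) than within DRF (0.72), and the regimens differed in it (dark minus light -0.25, adjusted p = 0.000198). Prkaa1 was lower when fed within NRF (-0.52, adjusted p = 6.69e-08), with -0.047 within DRF (adjusted p = 0.657), and the regimens differed (dark minus light -0.24, adjusted p = 0.00045).

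Of 9 transcriptional regulators, 4 were higher and 1 lower when fed. Ppara, the receptor that drives fatty acid oxidation genes in fasting, was lower (-0.92, SE 0.10, adjusted p = 2.75e-10). It held 5.22 to 10.7 CPM in fasting and 2.48 to 5.11 CPM in fed NRF libraries and 6.37 to 12.1 CPM and 2.6 to 5 CPM in DRF libraries, with no overlap. Esrra (0.62, adjusted p = 4.35e-09), Ppard (0.40) and Rxra (0.31) were higher when fed. Nrf1 (0.22 pooled) was higher when fed within DRF (0.41, adjusted p = 2.81e-05), with 0.019 within NRF (adjusted p = 0.87), and the regimens differed (dark minus light -0.20, adjusted p = 0.00598). Of 6 genes listed as PPAR-responsive in fasting, Pdk4 was lower when fed (-0.74, adjusted p = 0.000714), but Ucp3 (1.00, adjusted p = 4.91e-08), a mitochondrial carrier, and Acot1 (0.91, adjusted p = 0.000167), a cytosolic acyl-CoA thioesterase, were higher. Ucp3 passed within both regimens (1.36 within NRF and 0.64 within DRF), while Pdk4 and Acot1 passed within DRF (adjusted p = 0.0018 and 0.0011) and not within NRF (-0.47, adjusted p = 0.139, and 0.67, adjusted p = 0.0532). The test of a difference between the regimens did not pass for Ucp3 (dark minus light adjusted p = 0.0502), Pdk4 (0.303) or Acot1 (0.399). Acot1 had its highest DRF fed value, 11.9 CPM, in the library apart, and its feeding difference was 0.82 without both libraries.

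**Figure D5:**
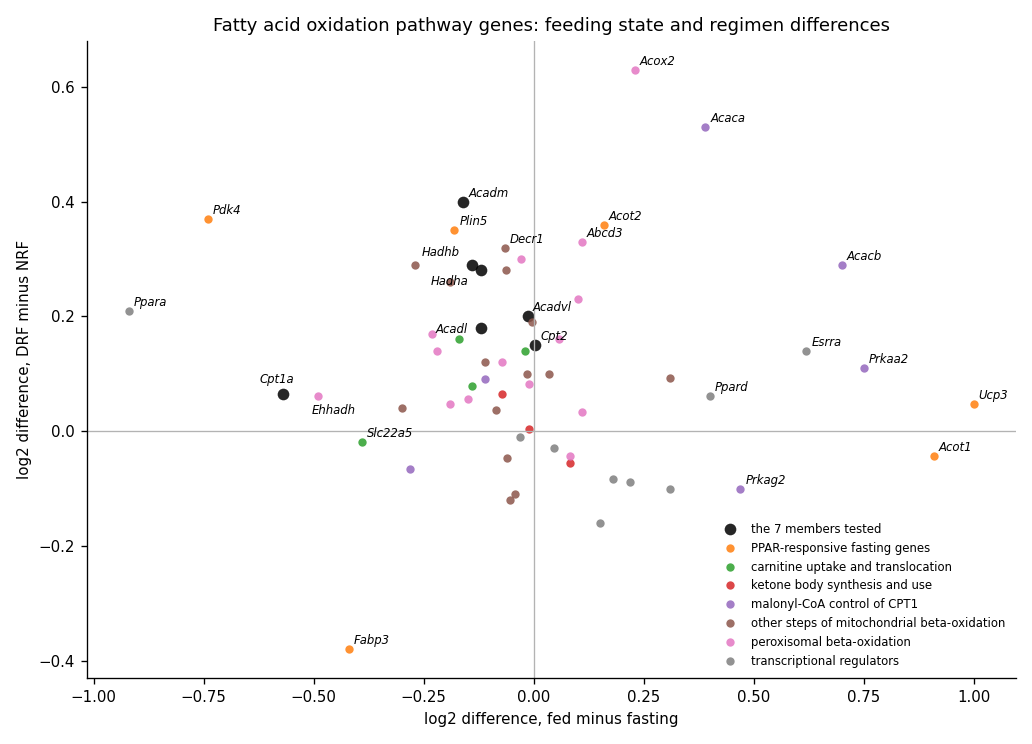
Log2 difference of fed minus fasting (x axis) against that of DRF minus NRF (y axis) for the 63 pathway genes tested and described here, coloured by list with the 7 members in black. Ppara (-0.92) and Pdk4 (-0.74) lie furthest left, Cpt1a (-0.57) left of the other members, and 6 members lie at 0.15 to 0.40 on the y axis.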

How the data were processed

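Poly-A RNA of VAT from 56 mice was sequenced as 150-base pairs. The submitters' processing notes name HISAT2 2.0.5, featureCounts 1.5.0-p3 and build mm10, and the normalization is not given in the sources used here. What the authors deposited is a table called TPM. By its steps the deposited value is a score, log2(CPM + 1) divided by exon length and rescaled per library. The first 30 steps of each library gave back reads: 99.99152% of 1261965 values up to 10000 reads were whole within 0.02. This share covers only genes accepted because nearly all of their values were whole, so it is high by construction. Of the 25939 genes, 24797 met this rule at the reference length, without a search for a length. Lengths came from GENCODE M21 for 25046 genes and from the values for 882, Cpt1a among them. The remaining 11 genes were left out. Effective library sizes were 31.8 to 47.3 M, so counting error is small for every member but Cpt1b. The plan assumed linear TPM, and log2(CPM + 1) took its place, with a pseudocount of 1 that understates the change of low genes.

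limma 3.58.1 (R 4.3.3, intensity trend) fitted the 14 group means on 17236 genes with at least 0.5 CPM in 4 libraries, and 7 of 8 members passed. p-values were adjusted by Benjamini-Hochberg over all genes tested, with a threshold of 0.05. Rhythms were tested per regimen on the deposited values with JTK_CYCLE (6 templates, 2 h apart) and Lomb-Scargle, combined after MetaCycle, in Python 3.11.15 (numpy 2.4.6, scipy 1.17.1), and cosine waves were fitted as in CircaCompare. In simulated data 184 of 200 changed genes and 6 of 5800 others were called by limma for the feeding state, and 175 of 200 rhythmic and 6 of 2800 other genes by the rhythm test. The simulated rhythms had amplitudes above the SD within groups, independent noise and no libraries apart. The rhythm counts therefore do not say how often rhythms like those of the members would be called. Alternatives were no filter, a pseudocount of 0.25, median-of-ratios scaling, voom, a replicate block, JTK_CYCLE alone, linear CPM, and leaving out ZT24, a replicate number or the 2 DRF libraries apart.

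The members, gene lists and tests were chosen with earlier results of these data known. Named genes are the members, up to 4 genes per list by the adjusted p of the feeding state, and the genes most like the members in profile among 14091 genes with a mean log2(CPM + 1) of at least 1; other list genes were named after their values were seen. Nothing in the labels says that libraries of a group differ otherwise than by mouse. Promoters are from RefSeq. Other tissues were not analysed here, and some genes of the pathway lists are not reported here.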

Additional observations from a re-analysis of the deposited data

Results flagged for a closer look

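In 6 of 112 groups of 4 mice, 1 mouse stood far from the other 3 (a gap to its neighbour above Dixon's 95% limit, given as a share of the whole range), where chance flags about 1 in 20. Cpt1a had a high mouse under DRF at ZT4 (55.3 CPM, 0.889 of the range). Cpt1b had a low one under NRF at ZT12 (0.215 CPM, 0.899), at a few reads. Acadm had a high one under DRF at ZT4 (655 CPM, 0.893), and Hadhb a low one under NRF at ZT8 (230 CPM, 0.902). Cpt2 (129 CPM, 0.832) and Acadm (365 CPM, 0.913) had a low one under DRF at ZT0, in both cases replicate 4, which held 245 CPM of Epcam.

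The 24-h rhythm differed between DRF and NRF by the limma interaction for Cpt1a (adjusted p = 3.14e-11), Acadl (0.000108) and Acadm (0.0343). These are 3 of the 7 members tested, where 51.6% of the 17236 genes tested passed. Without the 2 DRF libraries apart Cpt2 passed too (adjusted p = 0.00949 in limma), where 57.8% of all genes did.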

How the results depend on the processing

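Of 884 alternative values, 7 changed sign, none of them past the threshold, and 94 kept their direction but no longer passed. Values marked as moved numbered 47 for the headline results and 6 for others, and 2 were marked as stronger. Without the 2 DRF libraries apart, members past the threshold numbered 1 for dark minus light (0 in the main analysis), 2 at ZT0 (1), 1 at ZT8 (2) and 4 after 4 h of fasting (2), where the shares of all genes called were 23.2% (19.9%), 18.2% (16.9%), 30.7% (26.1%) and 23.4% (17.7%), while Acadvl went from -0.014 to 0.036 for feeding and Cpt2 from 0.051 to -0.002 for dark minus light. With no filter, 0 passed at ZT12 and at the end of the fast (1 each), where 16.1% and 5.5% of 25928 genes were called. Under NRF, JTK_CYCLE alone and the data without ZT24 called 1 rhythmic member (2), with 25.8% and 24% of all genes called (24.5%). Under DRF the cosine F test called 4 of the 7 members tested, with the replicate block 4 as well, where 40.4% and 41.9% of 17236 genes were called. The combined test called 2 of 8, Cpt1b among them, where 12.9% of 25939 genes were, so these counts come from unlike tests.

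Leaving out each replicate number in turn gave 0 to 1 members for dark minus light, 1 for feeding, 3 to 6 for the regimen, 0 to 1 at ZT0, 4 to 7 at ZT4, 1 to 2 at ZT8, 0 at ZT12, 2 to 4 at ZT16, 1 to 6 at ZT20, 2 to 5 at ZT24, 0 to 1 at the end of the fast, 2 to 5 after 4 h of feeding, 0 to 2 after 4 h and 0 to 4 after 8 h of fasting, 1 rhythmic member under NRF and 0 to 1 under DRF. The shares of all genes called then ran from 7.61% to 15.8% for dark minus light, 28.6% to 34.5% for feeding, 22.8% to 31.6% for the regimen, 6.75% to 33% over the 7 clock times, 1.47% to 18.3% after 8 h of fasting, 6.58% to 16.2% after 4 h of fasting, 8.88% to 16.4% after 4 h of feeding, 3.46% to 6.12% at the end of the fast, 13.7% to 19% for the rhythm under NRF and 5.15% to 7.91% for that under DRF. The feeding difference of Cpt2 then ran from -0.039 to 0.041, that of Acadvl from -0.073 to 0.015, and dark minus light of Acadl from -0.057 to 0.086. The causes were not tested. The 364 same-numbered pairs of libraries had a median correlation of 0.0398 (-0.613 to 0.552), and pairs of other numbers one of -0.0116. A median near 0 cannot decide whether the numbers mark pairs or a batch. With the replicate block 1 member passed for feeding, 0 for dark minus light and 6 for the regimen. The shares of all genes were then 37.8%, 21.3% and 36.2%, in place of 36.4%, 19.9% and 34.7%. Among the members depth limits Cpt1b, and low levels also limit other genes such as Bdh1.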
